A study of Mus musculus with 6 samples.

Results

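The acute phase proteins and STAT3 signaling genes described here are 10 genes: the serum amyloid A genes Saa1, Saa2 and Saa3, the orosomucoid genes Orm1 and Orm2, haptoglobin (Hp), lipocalin 2 (Lcn2), serum amyloid P (Apcs), the transcription factor Stat3 and its inhibitor Socs3. They were picked by gene symbol, and all 10 were found among the 17975 genes of the expression table. RNA was sequenced from whole liver tissue of 3 WT mice and 3 Hom mice, with 1 liver per mouse. In Hom mice, the labels give a NEK7 hepatocyte knock-out, which the methods describe as NEK7 fl/fl mice crossed with Alb-Cre mice, and the WT mice have no further allele in the labels. Alb-Cre is driven by the albumin promoter, which is active in hepatocytes. Whether all other liver cells keep an intact Nek7 cannot be read from whole liver RNA. No treatment is given for either group, and the study reports both sexes and matched controls for its knock-out experiments, but the age and sex of each sequenced mouse were not found in the sources used here. The comparison asks what the loss of NEK7 from hepatocytes does to liver gene expression.

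The acute phase response is the change in plasma proteins that the liver makes during infection or tissue injury. Interleukin-6 and related cytokines bind receptors that share the subunit encoded by Il6st, Janus kinases phosphorylate STAT3, and STAT3 then enters the nucleus and activates genes of secreted proteins together with C/EBP and NF-kB factors, the latter driven by interleukin-1 and TNF. SOCS3 is itself induced by STAT3 and switches the receptor off. In mice, serum amyloid A and serum amyloid P are major acute phase reactants made by hepatocytes, whereas Saa3 is known mainly from macrophages, adipose tissue and epithelia.

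The estimated counts summed to between 19349418 and 19730236 per liver, and differences were tested over 13805 genes with edgeR's quasi-likelihood test. Levels are given in TPM, the authors' measure scaled for gene length and for the total of each liver. Nek7 itself had 1127, 1077 and 1036 counts in the WT livers and 310, 439 and 387 counts in the Hom livers, in the direction of the labels (log2 fold change −1.99, SE 0.10, adjusted p = 1.59e-04). A pair of livers stood apart. WT replicate 1 held the highest summed level of 13 neutrophil markers, 440.2 TPM against 11.2 and 25.5 TPM in the other WT livers and 67.5 to 251.9 TPM in the Hom livers. Hom replicate 1 had no count for the Y-linked genes Ddx3y and Kdm5d, which had at least 630 and 243 counts in each of the other 5 livers. It also held 4 counts of the Y-linked Eif2s3y, against at least 582 in each of the other 5 livers. This liver still held 149 counts of another gene of the Y chromosome, Uty, for which the lowest of the remaining livers held 464. For all of these Y-linked genes, Hom replicate 1 thus lay below every WT liver. The part of this difference in the results was not tested. Values with and without these livers are given for the genes whose value or call they change.

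Lcn2, Socs3 and Hp were higher in Hom livers, and Saa3 was lower. The other 6 genes, Saa1, Saa2, Orm1, Orm2, Apcs and Stat3, did not pass an adjusted p of 0.05 in the edgeR fit. All 10 genes passed the filter on low counts, so 3 of 10 were called higher and 1 of 10 lower, against 21.5% of all tested genes called higher, 20.1% called lower and 41.7% called in either direction. Their log2 fold changes had a median of 1.53, against −0.0018 over all tested genes. In normalized counts the groups did not overlap for 5 of the 10 genes (55.6% of all tested genes), and for 4 of them all Hom livers lay above all WT livers (28.7%). By this measure single livers stood out within both groups: among WT livers, replicate 1 was the highest for 8 of the 10 genes, and among Hom livers, replicate 1 was the highest for all 10. Over all tested genes, WT replicate 1 was the highest WT liver for 38.6% and Hom replicate 1 the highest Hom liver for 39.0%.

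**Figure D1:**
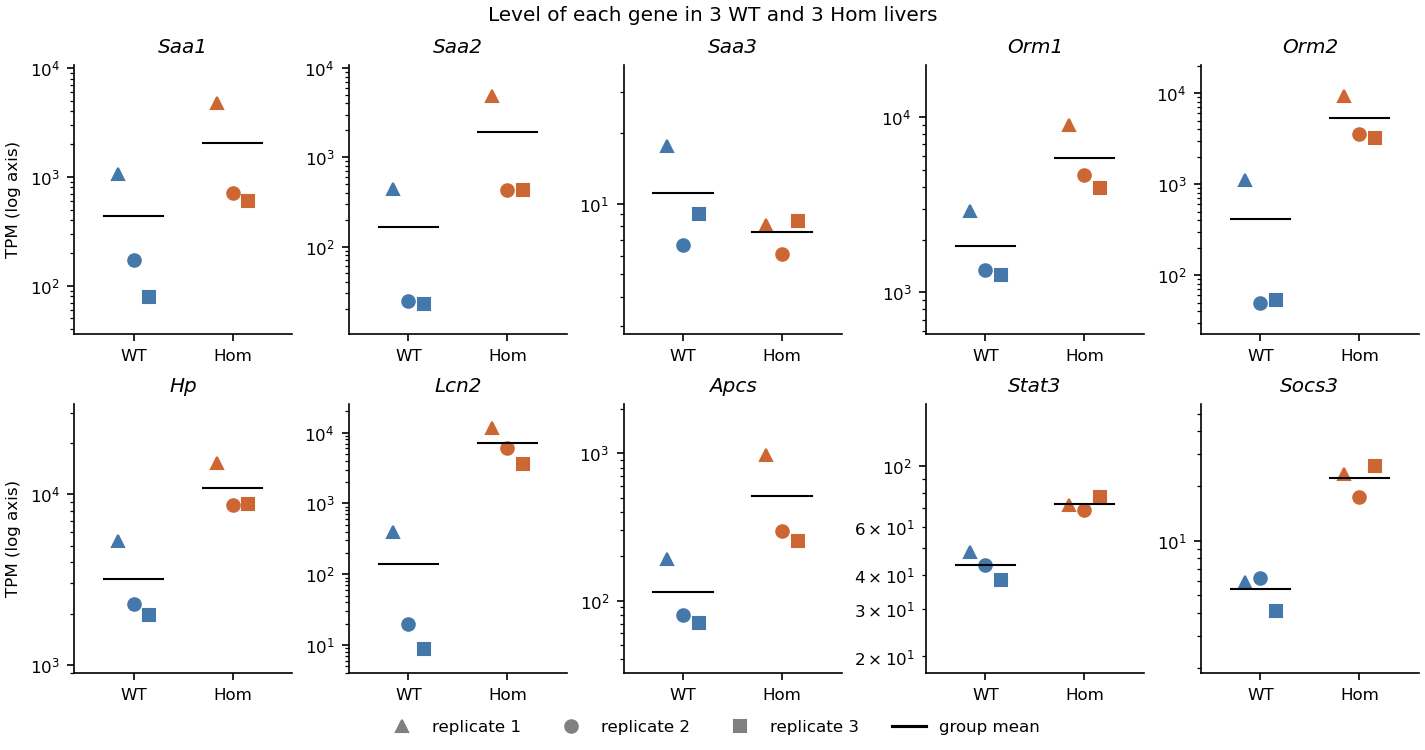
Level of each of the 10 genes in each liver in TPM on a log axis, with symbols for the replicate number and a line at the group mean. Replicate 1 is the highest WT liver for Saa1, Saa2, Saa3, Orm1, Orm2, Hp, Lcn2 and Apcs, and in TPM also for Stat3, while Socs3 and Stat3 are spread little within each group.

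Without WT replicate 1, 6 of the 10 genes were higher in Hom livers and 0 were lower by edgeR, beside 3057 and 2750 of 14208 tested genes. DESeq2, on all 6 livers, called 4 higher and 1 lower, beside 3076 and 2863 of 13805 genes. Without Hom replicate 1, 1 gene was higher and 1 lower, beside 2708 and 2546 of 14077 genes. With both left out, an alternative chosen after the data were seen, 8 were higher, all but Saa3 and Stat3, beside 3339 of 13989 genes. Without WT replicate 2 or Hom replicate 2, 1 gene was higher, beside 2070 of 14230 and 2023 of 14014 genes. Saa3 was called lower without WT replicate 2 (adjusted p = 0.0384) but not without Hom replicate 2 (adjusted p = 0.105).

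The promoters of 8 of the 10 genes are in the RefSeq table for GRCm38.p6; Hp and Orm1 had no entry. The 250 bases before the RefSeq start of transcription are shown for 6 of them, the serum amyloid A genes because Saa1 and Saa2 share nearly all of this sequence while Saa3 does not, Lcn2 as the gene with the largest change, and Apcs and Socs3 as the genes with a STAT match. GENCODE M21 gives other starts for some of these genes. By its positions the stretches of Lcn2 and Socs3 lie inside the gene, and those of Saa2 and Saa3 overlap its start. Each is written from 5′ to 3′ on the strand of the gene, with matches to TTCNNNGAA (STAT), TTNNGNAA (C/EBP) or TATAAA (the core promoter TATA element) on either strand in capitals.
Saa1 (chr7:46742981-46743230, minus strand): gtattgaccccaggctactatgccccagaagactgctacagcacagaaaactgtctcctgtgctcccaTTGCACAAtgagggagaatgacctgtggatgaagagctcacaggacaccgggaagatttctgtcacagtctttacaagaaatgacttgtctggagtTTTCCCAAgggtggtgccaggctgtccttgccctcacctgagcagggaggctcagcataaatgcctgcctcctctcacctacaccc
Saa2 (chr7:46751583-46751832, plus strand): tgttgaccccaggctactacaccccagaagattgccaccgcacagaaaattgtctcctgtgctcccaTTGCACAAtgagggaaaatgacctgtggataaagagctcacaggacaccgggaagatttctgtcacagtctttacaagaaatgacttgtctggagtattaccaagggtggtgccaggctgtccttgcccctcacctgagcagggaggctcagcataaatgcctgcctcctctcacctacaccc
Saa3 (chr7:46715677-46715926, minus strand): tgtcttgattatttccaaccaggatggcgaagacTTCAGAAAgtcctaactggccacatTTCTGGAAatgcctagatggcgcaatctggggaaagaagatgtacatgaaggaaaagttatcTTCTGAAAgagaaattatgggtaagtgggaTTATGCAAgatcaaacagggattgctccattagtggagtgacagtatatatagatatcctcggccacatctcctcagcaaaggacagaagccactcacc
Lcn2 (chr2:32387740-32387989, minus strand): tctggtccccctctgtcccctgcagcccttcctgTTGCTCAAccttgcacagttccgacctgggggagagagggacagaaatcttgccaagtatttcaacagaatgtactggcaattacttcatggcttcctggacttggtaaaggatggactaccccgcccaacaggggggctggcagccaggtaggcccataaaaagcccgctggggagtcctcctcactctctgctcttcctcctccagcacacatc
Apcs (chr1:172895055-172895304, minus strand): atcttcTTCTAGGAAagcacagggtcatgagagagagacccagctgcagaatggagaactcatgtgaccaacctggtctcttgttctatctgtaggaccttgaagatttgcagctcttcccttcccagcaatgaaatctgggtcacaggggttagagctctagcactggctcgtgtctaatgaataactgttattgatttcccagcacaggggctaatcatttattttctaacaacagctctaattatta
Socs3 (chr11:117969367-117969616, minus strand): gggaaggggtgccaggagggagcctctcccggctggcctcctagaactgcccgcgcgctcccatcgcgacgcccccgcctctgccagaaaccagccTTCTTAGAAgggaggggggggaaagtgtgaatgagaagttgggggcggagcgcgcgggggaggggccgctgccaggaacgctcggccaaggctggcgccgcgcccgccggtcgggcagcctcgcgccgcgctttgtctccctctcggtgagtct

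Over 249 aligned bases the Saa1 and Saa2 promoters were 95.6% identical, whereas Saa1 and Saa3 were 59.4% identical over 224 aligned bases. A STAT match was found in Apcs and in Socs3, and 7.02% of all 32851 promoters in the table hold one. The Saa1 and Saa2 promoters share the C/EBP match TTGCACAA on the minus strand; Saa1 has a further one, Saa3 has 4, Lcn2 has 1, and 36.8% of all promoters hold this short pattern. The TATA box pattern was found in Orm2 alone of the 8 and in 12.4% of all promoters. The patterns can overlap one another, and a match is a description of the letters and not a binding site.

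Lcn2 encodes a secreted protein that binds bacterial siderophores and starves bacteria of iron, and it is made by injured hepatocytes, neutrophils and epithelia. It changed the most of the 10 genes. Its level was 389, 19.6 and 8.80 TPM in WT replicates 1, 2 and 3 and 11473, 6066 and 3588 TPM in Hom replicates 1, 2 and 3. The groups did not overlap, and the lowest Hom liver had 6.65 times the normalized count of the highest WT liver. Normalized counts (CPM, scaled for depth and by TMM factors but not for gene length) averaged 69.6 ± 106 (SD, n = 3) in WT livers and 2625 ± 1691 (SD, n = 3) in Hom livers, a ratio of 37.7. The log2 fold change was 5.24 (SE 1.45, adjusted p = 0.0263), which ranked 40 among the 13805 genes tested. By TPM, Lcn2 ranked 349, 3539 and 5979 among all 17975 genes in the WT livers and 8, 19 and 36 in the Hom livers. WT replicate 1 held 22.6 times the mean CPM of the other WT livers, and without it the log2 fold change was 8.27 (adjusted p = 0.00183). The adjusted p was 0.0724 without WT replicate 2, 0.0536 without Hom replicate 1 and 0.0535 without Hom replicate 2.

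Saa1 and Saa2 encode the acute phase forms of serum amyloid A, proteins carried on high-density lipoprotein. The genes lie close together on chromosome 7, Saa1 on the minus strand from 46740497 to 46742980 and Saa2 on the plus strand from 46751790 to 46754313 (GRCm38, GENCODE M21). Saa1 was at 1072, 172 and 78.4 TPM in WT replicates 1, 2 and 3 and at 4830, 710.1 and 601.4 TPM in Hom replicates 1, 2 and 3. Saa2 was at 444, 24.4 and 22.8 TPM in the WT livers and at 4859, 429.4 and 425.2 TPM in the Hom livers in the same order. WT replicate 1 lay above Hom replicates 2 and 3 for both genes, so the groups overlapped. Saa1 had a log2 fold change of 1.79 (SE 1.14, adjusted p = 0.244). For Saa2 it was 3.16 (SE 1.48, adjusted p = 0.128).

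Single livers decided both values. Without WT replicate 1, the log2 fold change of Saa2 was 5.69 and passed the threshold (adjusted p = 0.0295), and that of Saa1 was 3.36 (adjusted p = 0.0644). Without Hom replicate 1, which held 8.31 times the mean CPM of the other Hom livers for Saa1 and 12.8 times for Saa2, the log2 fold change of Saa1 was 0.0091 (adjusted p = 0.995) and that of Saa2 was 0.85 (adjusted p = 0.589). With both livers left out, the values were 1.59 for Saa1 (adjusted p = 0.0181) and 3.40 for Saa2 (adjusted p = 1.83e-04).

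The counts of Saa1 and Saa2 are uncertain between the genes, since their reference transcripts are 94.4% identical over 606 aligned bases and the deposited estimates were not whole numbers, within 0.001, in any of the 6 livers. Of the 100-base windows of the Saa1 transcript, 0.0% were found unchanged in that of Saa2. Counted together, Saa1 and Saa2 had a log2 fold change of 2.30 (adjusted p = 0.178). The share of Saa2 in their joint TPM was 29.3%, 12.4% and 22.5% in the WT livers and 50.1%, 37.7% and 41.4% in the Hom livers, so that each Hom liver lay above each WT liver (p = 0.1 by a two-sided exact permutation test, which cannot go lower with 3 livers against 3).

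Saa3, also on chromosome 7, had a far lower level than Saa1 or Saa2. It was at 17.7, 6.70 and 9.05 TPM in WT replicates 1, 2 and 3 and at 8.15, 6.09 and 8.41 TPM in Hom replicates 1, 2 and 3. These levels overlapped between groups, whereas after TMM scaling the normalized counts did not, with 5.42, 2.76 and 3.38 CPM in the WT livers and 2.19, 1.28 and 1.85 CPM in the Hom livers. Its log2 fold change of −1.12 (SE 0.34, adjusted p = 0.0340) was opposite in sign to the fitted values of Saa1 and Saa2. The call did not hold with library size alone (−0.70, adjusted p = 0.138) or with the gene length correction (−0.87, adjusted p = 0.0639). It was lost also without WT replicate 1 (−0.80, adjusted p = 0.0823), WT replicate 3 (adjusted p = 0.0534), Hom replicate 2 (adjusted p = 0.105) or Hom replicate 3 (adjusted p = 0.0901). Saa4, the constitutive member of the family, was lower in Hom livers (log2 fold change −0.82, SE 0.20, adjusted p = 0.0177), while its TPM levels overlapped between groups. That call was lost without Hom replicate 2 or Hom replicate 3 (adjusted p = 0.0611 and 0.0610) and with library size alone.

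Orm1 and Orm2 encode orosomucoid, the acid glycoprotein that carries lipophilic drugs in plasma. The genes are neighbors on the plus strand of chromosome 4, Orm1 from 63344560 to 63348163 and Orm2 from 63362449 to 63365878 (GRCm38). Orm1 was abundant in all livers, at 2899, 1346 and 1265 TPM in WT replicates 1, 2 and 3 and at 9003, 4651 and 3961 TPM in Hom replicates 1, 2 and 3. Orm2 was at 1125, 49.0 and 53.7 TPM in the WT livers and at 9209, 3593 and 3231 TPM in the Hom livers. By TPM both genes separated the groups, and by normalized counts Orm2 did so and Orm1 narrowly did not, since its lowest Hom liver had 0.985 times the CPM of WT replicate 1. Neither gene was called by edgeR with TMM factors, with a log2 fold change of 1.13 for Orm1 (SE 0.42, adjusted p = 0.0668) and 3.29 for Orm2 (SE 1.24, adjusted p = 0.0707). DESeq2 called Orm2 higher (adjusted p = 0.0378) but not Orm1 (adjusted p = 0.0808). With library size alone both were called higher (adjusted p = 0.0182 for Orm1 and 0.0446 for Orm2). With the gene length correction Orm1 was called (adjusted p = 0.0383) and Orm2 was not (adjusted p = 0.0603).

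As for serum amyloid A, WT replicate 1 stood apart, with 18.1 times the mean CPM of the other WT livers for Orm2. Without it both genes were called higher, Orm1 with a log2 fold change of 1.48 (adjusted p = 0.0399) and Orm2 with 6.03 (adjusted p = 0.00233). Without Hom replicate 1 neither was called, with 0.59 for Orm1 (adjusted p = 0.159) and 2.54 for Orm2 (adjusted p = 0.162). With both replicate 1 livers left out, the values were 0.96 for Orm1 (adjusted p = 0.00328) and 5.29 for Orm2 (adjusted p = 1.83e-04). The share of Orm2 in the joint TPM of Orm1 and Orm2 was 28.0%, 3.51% and 4.07% in the WT livers and 50.6%, 43.6% and 44.9% in the Hom livers. No Hom liver reached down to a WT liver (p = 0.1 by the same exact permutation test). The reference transcripts of Orm1 and Orm2 are 91.0% identical over 775 bases, and reads may have been split between them. Of the 100-base windows of Orm1, 6.95% were found unchanged in Orm2. Summed with Orm3 as 1 gene, Orm1 and Orm2 were higher in Hom livers (log2 fold change 1.80, SE 0.53, adjusted p = 0.0325).

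**Figure D2:**
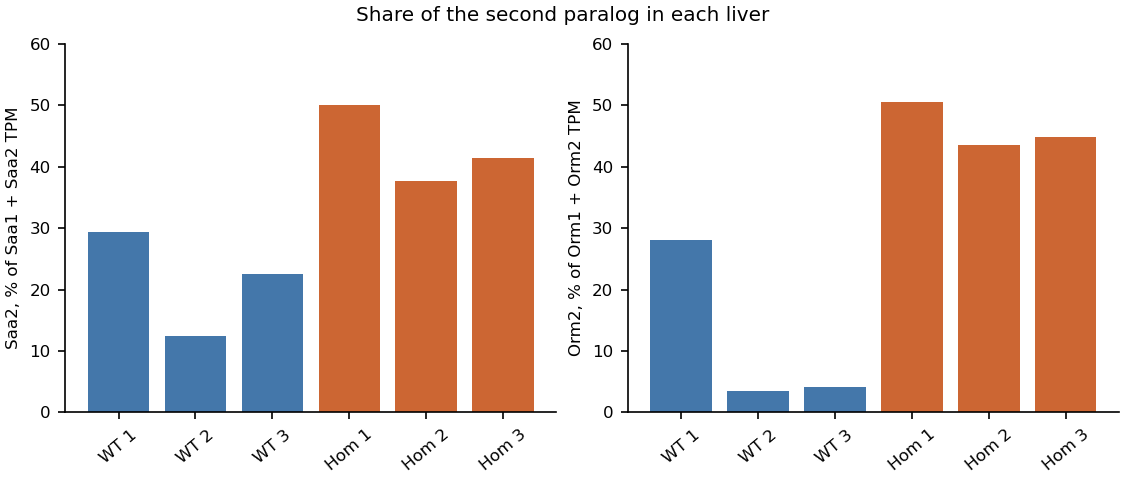
Share of Saa2 in the joint TPM of Saa1 and Saa2 (left) and of Orm2 in the joint TPM of Orm1 and Orm2 (right), in percent, as 1 bar per liver with WT in blue and Hom in orange. The Hom livers hold 37.7% to 50.1% of Saa2 and 43.6% to 50.6% of Orm2, above all WT livers, of which WT replicate 1 is the highest.

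Hp, the haptoglobin gene, encodes the plasma protein that captures free hemoglobin. It had the highest mean level of the 10 genes, at 5326, 2280 and 1964 TPM in WT replicates 1, 2 and 3 and at 15304, 8691 and 8734 TPM in Hom replicates 1, 2 and 3, where it ranked 6, 9 and 9 among all genes. The lowest Hom liver had 1.14 times the CPM of the highest WT liver. Hp passed just inside the threshold, with a log2 fold change of 1.23 (SE 0.41, adjusted p = 0.0483). The call was lost without any 1 of WT replicates 2 and 3 and Hom replicates 1, 2 and 3 (adjusted p = 0.0625 to 0.149; without Hom replicate 1 the log2 fold change was 0.82) and also with no filter on low counts (adjusted p = 0.0542), and held without WT replicate 1 (log2 fold change 1.67, adjusted p = 0.0186).

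Apcs encodes serum amyloid P, a pentraxin that is the main acute phase pentraxin of mice in the place that C-reactive protein has in humans. Its level was 193, 80.5 and 70.8 TPM in the WT livers and 980.5, 295.8 and 253.0 TPM in the Hom livers. By TPM the groups did not overlap, but by normalized counts Hom replicate 3 fell below WT replicate 1. Apcs was not called (log2 fold change 1.64, SE 0.62, adjusted p = 0.0708). Without Hom replicate 1 it was 0.63 (adjusted p = 0.190), and without WT replicate 1 it was 2.09 (adjusted p = 0.0583). Crp itself had a log2 fold change of −0.36 (adjusted p = 0.0651), while its mean TPM was higher in Hom livers, at 523.3 against 442.7 TPM. Without both replicate 1 livers Apcs was called higher (1.09, adjusted p = 0.00174).

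Stat3 was spread little within either group. It was at 48.3, 43.5 and 38.2 TPM in WT replicates 1, 2 and 3 and at 71.8, 69.3 and 76.8 TPM in Hom replicates 1, 2 and 3. The TPM levels did not overlap, but the normalized counts did, at 134 ± 9.63 CPM (SD, n = 3) in WT livers and 147 ± 13.4 CPM (SD, n = 3) in Hom livers. Stat3 was not called (log2 fold change 0.13, SE 0.10, adjusted p = 0.341). With library size alone its value was 0.58 (adjusted p = 0.00368), beside a median of 0.45 over all genes under that scaling. The values concern the transcript, and phosphorylated STAT3 was not measured in these files.

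Socs3, which encodes the feedback inhibitor of the interleukin-6 receptor, was higher in Hom livers in each alternative that was run. Its level was 5.89, 6.26 and 4.10 TPM in WT replicates 1, 2 and 3 and 23.4, 17.4 and 25.6 TPM in Hom replicates 1, 2 and 3. The groups did not overlap, and WT replicate 1 was no higher than WT replicate 2. The mean was 10.3 ± 2.11 CPM (SD, n = 3) in WT livers and 27.5 ± 6.25 CPM (SD, n = 3) in Hom livers, a ratio of 2.68. Its log2 fold change was 1.42 (SE 0.22, adjusted p = 0.00303). In each of the 6 fits that omit a single liver it was at least 1.29 with an adjusted p of at most 0.0153, and no other of the 10 genes was called in all 6.

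**Figure D3:**
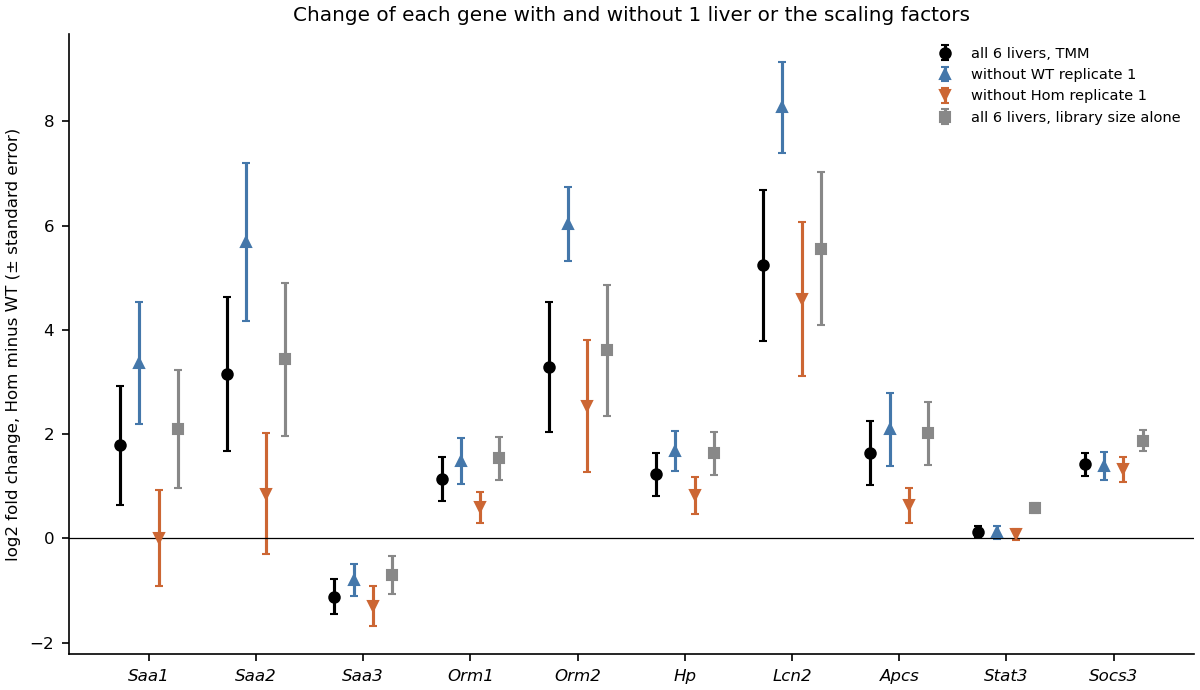
Log2 fold change of each gene with its standard error, with all 6 livers, without WT replicate 1, without Hom replicate 1, and with all livers scaled by library size alone. Saa1 moves from 3.36 without WT replicate 1 to 0.0091 without Hom replicate 1, while Socs3 stays between 1.32 and 1.87 and Stat3 passes the threshold only with library size alone, among the settings drawn.

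The 8 secreted proteins of the set took up 1.15%, 0.398% and 0.347% of all TPM in the WT livers and 5.57%, 2.44% and 2.08% in the Hom livers. In order of mean TPM in Hom livers, Hp was followed by Lcn2, Orm1, Orm2, Saa1, Saa2, Apcs, Stat3, Socs3 and Saa3. From Hp down to Apcs, each gene overlapped the next over the Hom livers, whereas Apcs, Stat3, Socs3 and Saa3 did not overlap one another. Over the 6 livers, the gene with the log2 CPM most like that of Hp was the heme carrier Hpx (r = 0.998, Pearson), and the gene most like Socs3 was the stress-induced Gadd45a (r = 0.998, log2 fold change 1.57, adjusted p = 0.00353). Orm1 and Apcs were both most like Lbp, the carrier of bacterial lipopolysaccharide (r = 0.990 for each). The other closest genes were Timeless for Saa1, Eva1c for Saa2, Ccdc124 for Saa3, Igsf8 for Orm2, Cfap69 for Lcn2 and Ankrd28 for Stat3 (r = 0.981 to 0.999). These are the highest of 12519 candidates in 6 livers that share their depth and group, and are given as a description.

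Other acute phase proteins were split. Of 29 tested, a list that also holds the constitutive Saa4, 10 rose, 5 fell, Saa4 among them, and 14 did not pass, beside 21.5% higher and 20.1% lower over all tested genes. The median log2 fold change of the list was 0.20 (−0.0018 over all genes). The largest increases were those of Il1rn, the secreted interleukin-1 receptor antagonist (log2 fold change 3.55, SE 0.20, adjusted p = 1.81e-04), and of the metal-binding metallothionein Mt1 (3.03, SE 0.85, adjusted p = 0.0280). The Mt1 value was 1.75 without Hom replicate 1 (adjusted p = 0.0531), and the call was lost also without WT replicate 2 (adjusted p = 0.0834) or WT replicate 3 (adjusted p = 0.0642). Il1rn was at 1.48, 1.04 and 1.56 TPM in WT livers and at 26.6, 26.0 and 20.6 TPM in Hom livers, and WT replicate 1 was not the highest WT liver. Lrg1, a leucine-rich plasma glycoprotein and STAT3 target, rose by 1.78 (SE 0.35, adjusted p = 0.00741), and the copper carrier Cp by 1.40. The protease inhibitor Serpina1b fell by 1.01 (SE 0.22, adjusted p = 0.0113; 0.0567 without Hom replicate 3). Hpx had the highest mean TPM of the list over the 6 livers, while in WT livers Serpina1b was higher (mean 9610 against 4559 TPM). Hpx was at 7823, 3104 and 2748 TPM in WT and at 20293, 11989 and 11665 TPM in Hom livers. With all livers it did not pass (log2 fold change 1.15, SE 0.42, adjusted p = 0.0663). With a single liver left out, its log2 fold change ran from 0.75 to 1.63 and its adjusted p from 0.0195 to 0.19, so the call of Hpx depended on the livers included. The fibrinogen genes Fga, Fgb and Fgg, with log2 fold changes of −0.080, 0.20 and 0.031, did not pass either. Hom replicate 1 was the highest Hom liver for 26 of the 29 genes, and WT replicate 1 the highest WT liver for 19. Without both of these livers 13 rose and 7 fell. With library size alone 1 fell.

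**Figure D4:**
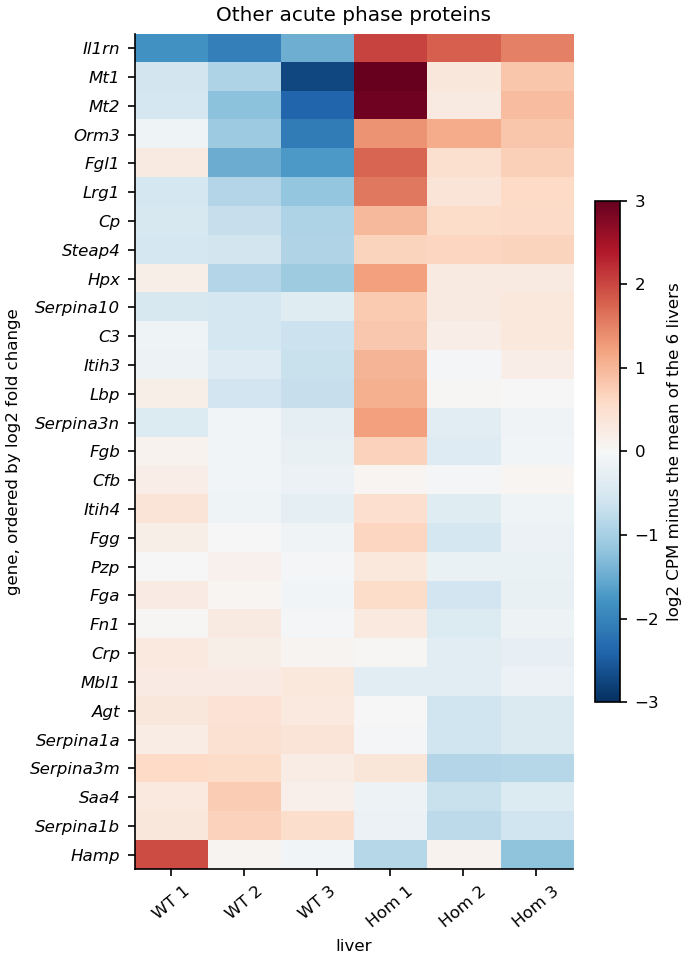
Log2 CPM of the 29 other acute phase proteins tested in each liver, minus the mean of the 6 livers for that gene, with genes ordered by log2 fold change and colors ending at −3 and 3. The column of Hom replicate 1 is the reddest of the Hom livers for most genes, and the hepcidin gene Hamp at the bottom is highest in WT replicate 1.

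Plasma proteins that the liver makes less of in inflammation were mostly lower. Of 16 tested, 10 fell, beside 20.1% of all tested genes, and 6 did not pass, with a median log2 fold change of −0.68. Ttr, which carries thyroid hormone and retinol-binding protein, fell by 1.85 (SE 0.16, adjusted p = 4.87e-04). Pon1, an esterase of high-density lipoprotein, fell by 1.70 (SE 0.21, adjusted p = 0.00158), and Alb, the most abundant, fell by 1.26 (SE 0.27, adjusted p = 0.00991; 0.0639 without Hom replicate 3). With library size alone 6 fell. Hepatocyte markers, which share Alb and Apoa1 with it, moved with this list: 20 of 30 fell, 1 rose, the median was −0.70, and their summed level was 109200 to 152700 TPM in WT and 85510 to 98600 TPM in Hom livers. Fewer hepatocytes and less RNA per hepatocyte cannot be told apart in whole liver RNA, and their part in these results was not tested.

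The ligands upstream of STAT3 had few counts. Il6 had 0 to 4 counts in every liver and was not tested, nor were Osm, Il27 and Il10, and Il22 was not analysed here. Of 8 ligands tested, 3 were higher, beside 21.5% of all tested genes. Lif, an interleukin-6 family cytokine, had 0, 1 and 3 counts in WT and 22, 48 and 48 counts in Hom livers (log2 fold change 4.29, SE 0.71, adjusted p = 0.00412). Clcf1, another member of that family, had 35, 5 and 10 counts in WT and 236, 300 and 273 counts in Hom livers (3.57, SE 0.52, adjusted p = 0.00250). It had the highest mean TPM of the ligands over the 6 livers, while in WT livers Ctf1 was higher (4.81 against 0.793 TPM). Tnf was higher as well (2.22, adjusted p = 0.00939), and Il1b did not pass (0.40, adjusted p = 0.556).

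Of 15 receptors and Janus kinases tested, 5 rose and 4 fell, beside 21.5% and 20.1% of all tested genes, and the median was 0.13. Osmr, the oncostatin M receptor, rose by 2.13 (SE 0.15, adjusted p = 2.83e-04) and Il10ra by 1.27 (adjusted p = 0.0276), a call lost without any 1 of WT replicates 2 and 3 and Hom replicates 2 and 3 (adjusted p = 0.0535 to 0.0889). Lifr, the LIF receptor, fell by 1.81 (SE 0.22, adjusted p = 0.00142), and Il6ra, the interleukin-6 receptor, fell by 1.24 (SE 0.16, adjusted p = 0.00169). Egfr had the highest level of the list and fell by 0.83 (adjusted p = 0.00125). Il6ra was at 27.8, 28.5 and 18.2 TPM in WT livers and at 15.3, 16.9 and 16.2 TPM in Hom livers, without overlap.

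**Figure D5:**
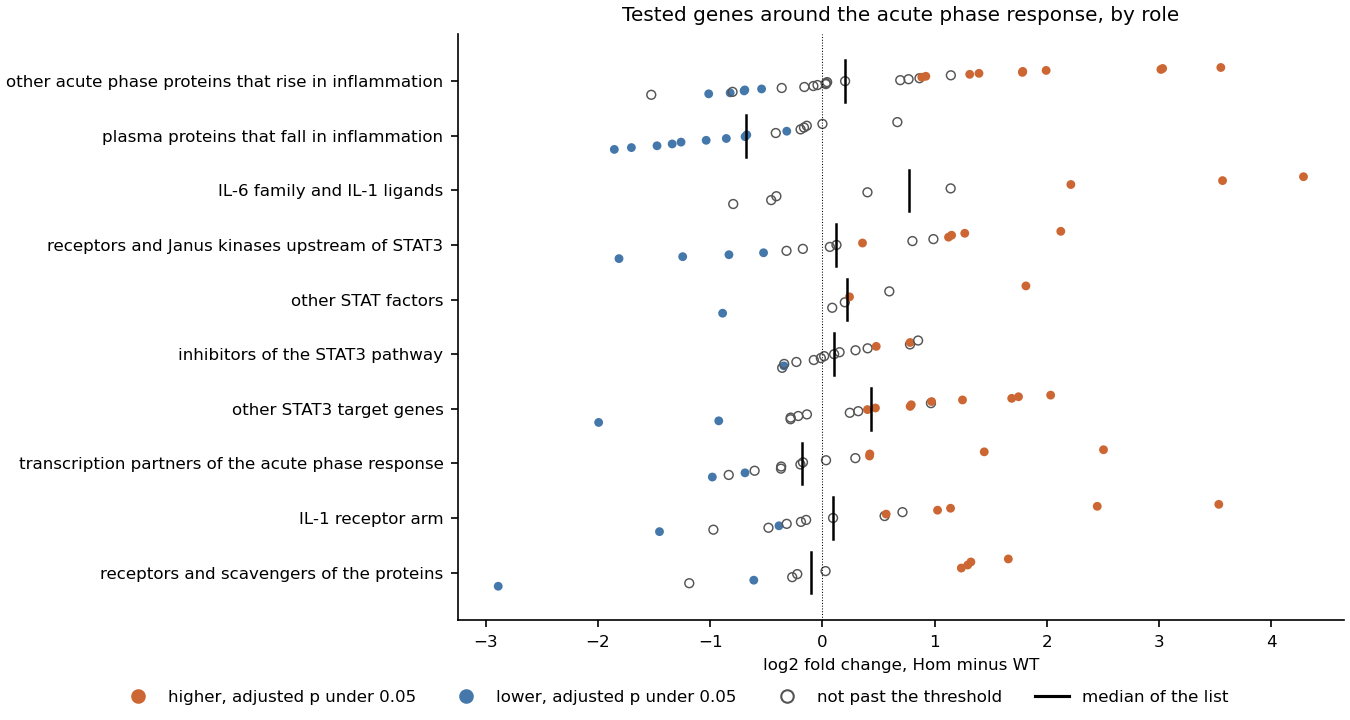
Log2 fold change of each tested gene in the lists around the acute phase response, with 1 row per role, filled points for genes past the threshold (orange higher, blue lower), open points for the others and a line at the list's median. The medians lie between −0.68 for plasma proteins that fall in inflammation and 0.77 for the ligands.

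Of 6 other STAT genes, Stat4 and Stat6 rose (log2 fold changes 1.81 and 0.24, adjusted p = 0.0251 and 0.0424), and Stat5b fell by 0.89 (adjusted p = 0.00202). The Stat4 call was lost without any 1 of WT replicates 2 and 3 and Hom replicates 2 and 3 (adjusted p = 0.0522 to 0.0968), and the Stat6 call without those livers or WT replicate 1 (adjusted p = 0.0737 to 0.140). Of 15 inhibitors of the pathway other than Socs3, 2 rose and 1 fell with TMM factors, beside 21.5% and 20.1% of all tested genes. With library size alone 9 of them rose, beside 6574 of 13805 genes. Those that rose were Socs5 (0.78, SE 0.15, adjusted p = 0.00697) and the phosphatase Ptpn6 (0.48, adjusted p = 0.0248), and Pias2 fell by 0.34 (adjusted p = 0.0259), a direction that turned with library size alone and in TPM. The phosphatase Ptpn11 had a log2 fold change of −0.013 (adjusted p = 0.915), and its sign also turned with library size alone. Over the 6 livers it had the highest mean of the inhibitors, 23.17 TPM beside 23.03 for Socs2, while in Hom livers Socs2 was higher (33.8 against 27.9 TPM). Ptpn6 was not called without any 1 of WT replicates 2 and 3 and Hom replicates 2 and 3 (adjusted p = 0.0546 to 0.0878), nor Pias2 without any 1 of WT replicates 1 and 2 and Hom replicates 1 and 3 (adjusted p = 0.0612 to 0.0955).

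Among 18 other target genes of STAT3, 9 rose and 2 fell, beside 21.5% and 20.1% of all tested genes, with a median log2 fold change of 0.44. Tgm2, a transglutaminase, rose by 2.03 (SE 0.25, adjusted p = 0.00150), and the adhesion molecule Icam1 by 1.75 (SE 0.40, adjusted p = 0.0136; 0.0522 without WT replicate 2). Tgm2 had the highest mean TPM of the list over all livers, while in WT livers Cebpb was higher (178.4 against 60.25 TPM). The kinase gene Pim3 fell by 1.99 (SE 0.20, adjusted p = 8.09e-04) and Cebpb, which encodes a C/EBP factor of the acute phase response, by 0.92 (SE 0.15, adjusted p = 0.00385). Of 14 transcription partners, 4 rose and 2 fell, beside the same shares of all tested genes. The NF-kB genes Relb and Nfkb2 rose by 2.51 (SE 0.39, adjusted p = 0.00323) and 1.44 (SE 0.14, adjusted p = 7.54e-04). The liver factors Foxa1 and Hnf4a fell by 0.98 (adjusted p = 0.0388) and 0.69 (adjusted p = 0.00745). Hnf4a had the highest mean TPM of the partners over all livers, while in Hom livers Cebpa was higher (286.2 against 273.8 TPM). Foxa1 stayed past the threshold without WT replicate 1, and its call was lost without any other single liver (adjusted p = 0.0563 to 0.123). With library size alone neither Foxa1 nor Hnf4a was called.

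Markers of other cells are read beside the 21.5% of all tested genes called higher and the 20.1% called lower. Neutrophils also make Lcn2: of their 9 tested markers 0 were called by edgeR or DESeq2 (0 had an unadjusted p under 0.05). Their log2 fold changes ran from −2.59 to 0.83 with a median of −0.124, and 3 of the 9 lay above 0. The granule genes Mpo, Elane, Camp and Ltf, which were not tested, had 12, 11, 25 and 68 counts at most in Hom livers. In WT replicate 1 these genes had 257, 100, 146 and 355 counts. S100a9, the most abundant marker, had 775 counts there, but 19 and 66 in WT replicates 2 and 3. Its counts were 133, 478 and 122 for Hom replicates 1, 2 and 3. Macrophages can express Saa3: 3 of their 13 markers rose and 2 fell, with Lyz2 the most abundant, and their summed level was 992.4, 362.6 and 352.8 TPM in WT and 1000 to 1573 TPM in Hom livers. Without WT replicate 1, 4 neutrophil and 8 macrophage markers rose. The Kupffer cell markers Timd4 and Clec4f were the ones that fell. Cholangiocytes, an epithelium that can make Lcn2, had 9 of 12 markers higher, with a summed level of 81.4 to 99.9 TPM in WT and 893.6 to 1376 TPM in Hom livers, led by Spp1. Of the stellate cell markers 5 of 13 rose and 2 fell (204.6 to 316.0 TPM in WT, 468.3 to 570.2 TPM in Hom), of the endothelial markers 5 of 11 fell (121.8 to 205.3 and 124.1 to 142.4 TPM), and of the lymphocyte markers 2 of 7 tested rose (5.44 to 16.2 and 18.6 to 38.5 TPM). By mean TPM over all 6 livers, not within each group, Dcn, Clec4g and Ptprc were the highest of these lists. No listed marker was at 0 in every liver of a group. Their part in the changes of the 10 genes was not tested.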

How the data were processed

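Liver RNA, isolated with Trizol, was sequenced by BGI Genomics (DNBSEQ) for the authors. The submitters' processing notes list HISAT2 2.0.4, Bowtie2 2.2.5, RSEM 1.2.12 and the build mm9, with no roles; the annotation and strandedness are not given in the sources used here. The authors deposited expected counts (estimated counts, not scaled between livers), FPKM and TPM values for 17975 genes. FPKM served only to recover gene length. The deposited group means carry crossed names (the mean named for one group equals that of the other for all 17975 genes, within 0.01) and were not used.

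After rounding, the counts were fitted with edgeR 4.0.16 in R 4.3.3 (glmQLFit and glmQLFTest, TMM factors of 0.806 to 1.23, filterByExpr). P-values were adjusted over 13805 genes (Benjamini-Hochberg). The threshold of 0.05 with no minimum fold change follows the study's methods, which name no test, and no covariate was used. Each standard error was the fold change on the log2 scale divided by the square root of F. A difference not past the threshold is not shown to be absent. Livers of a group differed by more than counting error (chi-square over degrees of freedom of 23.8 or more), so each liver counts as 1 sample. The 10 genes and the gene lists were chosen with earlier results of these data known. Named genes were the 10 genes, Nek7, in each list the highest and lowest 2 called genes and the gene with the highest mean TPM, the most correlated gene of each of the 10 (log2 CPM, prior count 2, mean of at least 1 CPM), and in marker lists the most abundant marker. Crp, Lrg1, Cp, Hpx and fibrinogen genes, Saa4, Il1b, Tnf, Ctf1, Socs2, Cebpa and the markers with counts were named after their values were seen. Alternatives were DESeq2 1.42.0, library size alone, upper-quartile scaling, a filter of 10 counts in each of the livers, no filter, a minimum absolute log2 fold change of 1, the replicate number as a block, a loess correction (span 0.5) for gene length, summed paralogs, limma 3.58.1 on log2 of TPM plus 1, and each liver left out. Promoters are from RefSeq (GRCm38.p6) and gene positions from GENCODE M21, which differ from the build in the notes; no position was used on the files.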

Additional observations from a re-analysis of the deposited data

How the results depend on the processing

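With library size alone, under which all genes had a median of 0.45 (log2), 6574 genes were higher and 642 lower; 7 of the 10 genes were higher and 0 lower, 1 other acute phase protein was lower, 1 plasma protein was higher and 6 lower, and 73 of the 146 tested genes of the lists other than markers were higher and 14 lower, against 44 and 29. With limma on log2 TPM (median of all genes 0.50), the counts were 8368 and 433 of all genes, 8 and 0 of the 10, 17 and 0 of the other acute phase proteins, 1 and 4 of the plasma proteins and 78 and 10 of the lists. With a minimum absolute change of 1 (log2), 1825 genes were higher and 575 lower, and 1 acute phase protein, 6 plasma proteins and 12 list genes were lower. DESeq2 and upper-quartile factors each called 1 plasma protein higher. DESeq2 gave no adjusted p for Saa1 and Saa2. With the gene length correction 0 of the 10 were lower. With the replicate block 8 of the 10 were higher; with the block and the length correction 8 were higher and 0 lower, and 3 acute phase proteins were lower. The livers share only a number: the correlations of deviations of same-numbered livers were −0.109, −0.0563 and −0.0494, and 0 of 6 livers correlated best with their own number. Without both replicate 1 livers, 8 of the 10 were higher and 0 lower.

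With a single liver or both replicate 1 livers left out, 1986 to 3339 genes were higher and 1767 to 2871 lower, 1 to 8 of the 10 were higher and 0 to 1 lower, 6 to 13 other acute phase proteins rose and 1 to 7 fell, 6 to 10 plasma proteins fell and 0 rose, and 29 to 51 list genes rose and 18 to 35 fell. The causes of these moves were not tested.

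Of 911 comparisons of a named gene with an alternative, over 51 genes, 759 kept sign and side of the threshold, 102 lost a call, 38 gained one and 12 turned. The last were Pias2 (0.11 with library size alone, 0.23 with limma), Ptpn11 (0.44 with library size alone, 0.58 with limma, 0.078 under upper-quartile scaling, 0.034 with the filter of 10 counts, and −0.087 to 0.048 with livers left out, the highest without Hom replicate 2), Irak2 (0.073 with library size alone, 0.22 with limma), Scarb1 (−0.086 without WT replicate 3, −0.0089 without Hom replicate 3, up to 0.098 without WT replicate 1) and Fcgr2b (0.013 with limma). Depth limits the ligands, of which Il6, Osm, Il27 and Il10 had too few counts to test.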

Other observations

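Receptors of the interleukin-1 arm, which acts beside STAT3 on acute phase genes, were split: of 15 tested genes, 5 rose and 2 fell, beside 21.5% and 20.1% of all tested genes, with a median log2 fold change of 0.096. Irak3, an inhibitor of this signaling, rose by 3.53 (SE 0.38, adjusted p = 9.63e-04), and Tlr2, a receptor for bacterial lipopeptides, by 2.45 (SE 0.41, adjusted p = 0.00417). The receptor subunit gene Il1rap fell by 1.45 (SE 0.16, adjusted p = 0.00111) and Irak2 by 0.39 (adjusted p = 0.0195), the latter turning in sign with library size alone and not called without any 1 of WT replicates 2 and 3 and Hom replicates 2 and 3 (adjusted p = 0.0517 to 0.0772). Tnfrsf1a rose by 0.57 (adjusted p = 0.00517) and had the highest mean TPM of the list over the 6 livers, while in WT livers Il1rap was higher (82.1 against 57.3 TPM).

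Among 10 receptors and scavengers of acute phase proteins, 4 rose and 2 fell, beside 21.5% and 20.1% of all tested genes. Cd163, the macrophage receptor for haptoglobin bound to hemoglobin, fell by 2.89 (SE 0.65, adjusted p = 0.0129; 0.0536 without Hom replicate 3), from 517, 226 and 212 counts in WT to 110, 18 and 42 counts in Hom livers, while Hp was called higher. Fcgr2b fell by 0.61 (adjusted p = 0.00943), Fcgr1 rose by 1.66 (adjusted p = 0.0211; 0.0643 to 0.0726 without WT replicate 2, WT replicate 3 or Hom replicate 2) and Cd36 by 1.32 (SE 0.12, adjusted p = 5.35e-04). Scarb1, a receptor for high-density lipoprotein and the most abundant of these, had a log2 fold change of 0.029 (adjusted p = 0.873). Slc22a17, a receptor for Lcn2, rose by 1.30 (SE 0.38, adjusted p = 0.0316).

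The hepcidin gene Hamp, a STAT3 target that lowers plasma iron, did not pass the threshold. It was at 4861, 1089 and 970 TPM in WT and at 859.3, 1912 and 746.4 TPM in Hom livers (log2 fold change −1.52, adjusted p = 0.0861), so that WT replicate 1 was again the highest WT liver.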
